A study of Mus musculus with 9 samples.

Results

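The carbohydrate genes of the mouse liver form 4 branches, and 35 of their genes were followed here over 3 diets: 17 of glycolysis, glucose transport and pyruvate oxidation, 6 of gluconeogenesis and glucose release, 8 of glycogen and 4 of the pentose phosphate pathway. They were chosen by gene name, not by their values, and probes were taken where the name in the array files was one of them. Of the 35, 34 had a probe, and all 34 were well above background on all 9 arrays. The level of Pck1, the cytosolic enzyme that makes phosphoenolpyruvate for gluconeogenesis, was not analysed here. The whole series held 17636 features (genes or transcripts, each read by its brightest probe) with signal above background.

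Livers came from male C57bl/6J mice of 16 weeks that had eaten 1 of 3 diets for 12 weeks. The chow group ate chow food. HFD mice were given a high-fat diet holding 60 kcal% of fat, and HFD+APS mice that same high-fat diet mixed with Astragalus polysaccharides (APS), plant carbohydrates, at 40 g per kg. Each group held 3 livers with 1 array each, picked from a larger set of mice after liver HE staining and triglyceride (TG) measurement, so p-values measure the spread between selected livers. Whether the mice had been fasted before the livers were taken is not given in the sources used here.

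In a fed liver, glucose enters through the transporter Slc2a2, is phosphorylated and is either burned in glycolysis, stored as glycogen or passed into the pentose phosphate pathway, whose oxidative steps make NADPH for lipid synthesis and for keeping glutathione reduced. In fasting, glycogen breakdown and gluconeogenesis, which makes glucose from lactate, amino acids and glycerol, meet at glucose-6-phosphatase (G6pc), and free glucose leaves the cell. The liver runs both directions with the same set of reversible enzymes, and separate enzymes at the irreversible steps set the direction.

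The arrays lay on 3 slides. The chow arrays were alone on the first, the HFD arrays shared the second with HFD+APS 1, and HFD+APS 2 and HFD+APS 3 were on the third. Between 61.5 and 68.4% of spots were well above background on the first slide, 50.4 to 54.1% on the second and 63.5 to 64.5% on the third, and the mean signal of the negative control spots was 49.5 to 50.2 units on the first, 64.5 to 70.9 on the second and 44.7 to 47.1 on the third. Slide and diet cannot be told apart for HFD against chow or for HFD+APS against chow. HFD+APS 1 alone gives a difference from HFD within a slide. Among marker genes, 7 of 8 hepatocyte markers were measured, with a summed level of 10.94 to 11.10 on the chow arrays, 10.69 to 11.01 on HFD and 10.69 to 11.10 on HFD+APS (log2). By estimate, 6 of the 7 were below chow in HFD and 1 above, and Tat was called lower (-0.73, limma, adjusted p = 0.0417). In HFD+APS against HFD, 4 were above 0 and 3 below, and Cps1 was called higher (1.11, limma, adjusted p = 0.0346). The summed level of 5 of 6 markers of monocytes and lipid-associated macrophages was 2.85 to 2.92 on chow, 4.50 to 4.84 on HFD and 3.27 to 4.38 on HFD+APS. For 9 of 10 Kupffer cell markers it was 5.41 to 6.09, 6.20 to 6.80 and 5.84 to 6.94, and for 6 of 6 sinusoidal endothelial markers 4.80 to 5.47, 5.73 to 6.00 and 5.86 to 6.08. The sums add linear signals, and that of monocytes and lipid-associated macrophages was set mostly by Ly6c2. Ly6c2 read 2.62 to 2.71 on chow, 4.35 to 4.74 on HFD and 3.03 to 4.20 on HFD+APS. All 5 monocyte and lipid-associated macrophage markers were above chow in HFD by estimate. The summed level of 3 of 7 neutrophil markers was 0.44 to 2.66 on chow, 2.82, 2.16 and 5.63 on HFD 1 to 3 and 1.46 to 3.13 on HFD+APS. Of 7 stellate cell markers, the collagen genes Col1a1 (2.08) and Col3a1 (1.79) were called higher in HFD than in chow (limma, adjusted p = 0.0294 and 0.0151). The part of these cells in the results was not tested, and in a whole tissue fewer cells of a type and less RNA per cell cannot be told apart.

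All levels below are log2 of the processed signal relative to the 75th percentile of the same array, given for arrays 1, 2 and 3 of a group in that order. Levels of different genes come from different probes and are not compared. Differences are log2 ± SE from 1 limma fit over all 9 arrays (n = 3 per group), and a gene is called where its Benjamini-Hochberg adjusted p over all 17636 features was under 0.05.

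On the high-fat diet, 5 of the 34 genes rose and 0 fell against chow. The 5 were glycogenin (Gyg) and the branching enzyme (Gbe1) of glycogen synthesis, pyruvate carboxylase (Pcx), the glycolytic mutase Pgam1 and the transaldolase Taldo1, with differences of 0.37 to 1.02. Across all features 10.9% were called in this comparison, 4.55% as higher and 6.38% as lower, so 5 of 34 (14.7%) in either direction lay near the background share. The estimates leaned to the higher side: 28 of 34 were above 0, with a median of 0.33, against 45.9% of all features and a median of -0.04. Over the alternatives and left-out arrays tried, 25 to 30 of the 34 were above 0. For 12 of the 34 genes the HFD arrays did not overlap the chow arrays, each time higher, where 38.9% of all features had groups apart and 16.6% had them apart with HFD higher and 22.3% with HFD lower.

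With APS in the high-fat diet, 1 of the 34 genes fell against HFD and 0 rose, beside 1.5% of all features called, 1.03% as lower and 0.476% as higher. That gene was Pgd, the second NADPH-forming dehydrogenase of the pentose phosphate pathway. Estimates leaned to the lower side, with 27 of 34 below 0 and a median of -0.19 where the median of all features was 0.00. The HFD+APS and HFD livers did not overlap for 8 genes, 1 higher and 7 lower in HFD+APS, where 24.5% of all features had groups apart and 11.8% had them apart with HFD+APS lower. Both comparisons use the HFD arrays, so a high HFD value moves a gene up in the one and down in the other. HFD+APS against chow, in which they do not enter as a group, gave 2 genes higher and 1 lower beside 3.47% of all features called, 0.958% as higher and 2.51% as lower, with 20 of 34 estimates above 0 and a median of 0.10. Groups were apart there for 5 genes, 4 higher and 1 lower, beside 30.9% of all features, 12.7% with HFD+APS higher and 18.2% with it lower.

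**Figure D1:**
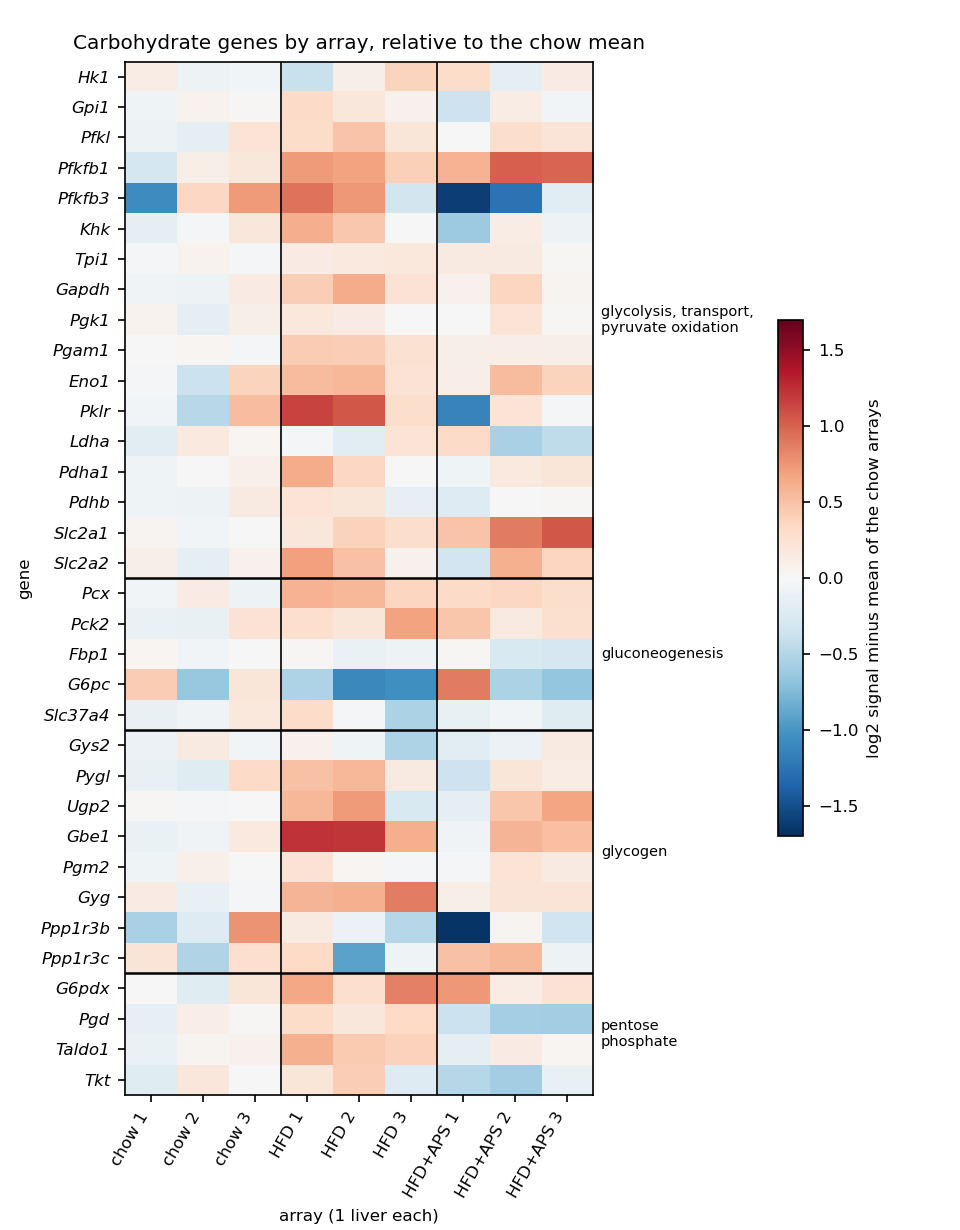
Heat map of 34 genes in rows, ordered by branch, over 9 arrays in columns. Colour is the log2 signal minus the mean of the chow arrays. Red squares fill much of the HFD 1 and HFD 2 columns, where the median over the genes was 0.34 and 0.37, against 0.16 on HFD 3, and Pfkfb3, Pklr and Ppp1r3b are deep blue on HFD+APS 1.

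The livers of a group were not alike. Over the 34 genes, the median distance from the chow mean was 0.34, 0.37 and 0.16 on HFD 1, 2 and 3, and -0.01, 0.15 and 0.07 on HFD+APS 1, 2 and 3. The third HFD liver thus sat closer to chow than the other two. HFD 1 held the highest of the 9 values for 13 of the 34 genes (11.6% of all features had their highest value there), and HFD+APS 1 held the lowest for 10 (10.4% of all features).

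Glycolysis, glucose transport and pyruvate oxidation came out above chow in HFD for 17 of 17 genes by estimate, with a median of 0.34. Of the 17, 1 passed the test (5.88%), beside 10.9% of all features called, 4.55% as higher. By the mean of all detected probes, or scaled on the probes detected on all arrays, 15 of the 17 were above 0. Against HFD, 14 of the 17 were lower in HFD+APS by estimate, with 0 called at the adjusted threshold and a median of -0.21.

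The called gene was Pgam1, phosphoglycerate mutase, which moves the phosphate of 3-phosphoglycerate. It read 5.69, 5.72 and 5.66 on chow, 6.13, 6.11 and 5.95 on HFD, and 5.79, 5.81 and 5.79 on HFD+APS. The 3 groups did not overlap, HFD being highest. The difference of HFD from chow was 0.37 ± 0.09, or 1.29-fold (limma, adjusted p = 0.0393), and that of HFD+APS from HFD was -0.26 ± 0.09 (adjusted p = 0.184). The first call was lost, at an adjusted p of up to 0.108, when any array but HFD+APS 1 was left out.

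At the irreversible end of glycolysis stands Pklr, the pyruvate kinase of liver and red cells and a target of the carbohydrate-sensing factor Mlxipl (ChREBP). Its levels were 0.08, -0.33 and 0.65 on chow, 1.29, 1.19 and 0.43 on HFD, and -1.01, 0.36 and 0.10 on HFD+APS. HFD 3 lay inside the chow range, while the 3 HFD+APS livers were all under the 3 HFD livers. Neither difference passed the test: HFD minus chow was 0.84 ± 0.41 (limma, adjusted p = 0.202) and HFD+APS minus HFD -1.15 ± 0.41 (adjusted p = 0.199). The second was -1.98 for HFD+APS 1 alone, on the slide of the HFD arrays, and -0.74 for the other two livers.

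Among the bifunctional enzymes that set fructose-2,6-bisphosphate, the activator of phosphofructokinase, 2 genes were measured. Pfkfb1, the liver form, stood at 2.54, 2.93 and 3.02 on chow, at 3.55, 3.51 and 3.23 on HFD, and at 3.42, 3.85 and 3.82 on HFD+APS. Every liver on either high-fat diet lay above every chow liver. HFD+APS exceeded chow by 0.87 ± 0.18, or 1.83-fold (limma, adjusted p = 0.0419), HFD exceeded chow by 0.60 ± 0.18 (adjusted p = 0.0645), and the 2 high-fat groups differed by 0.27 ± 0.18 (adjusted p = 0.461). The call for HFD+APS was lost in 7 of the 9 fits that left out an array (all but those without HFD 3 or HFD+APS 1), at up to 0.135. Without HFD+APS 1 the HFD difference passed instead, at 0.0423.

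Pfkfb3, the inducible form with high kinase activity, varied widely within groups. It read 0.60, 2.02 and 2.39 on chow, 2.59, 2.41 and 1.36 on HFD, and 0.07, 0.41 and 1.47 on HFD+APS. Chow 1 alone read low among the chow livers, and HFD+APS 3 lay just above HFD 3. HFD+APS minus HFD was -1.47 ± 0.56 with an interval of -2.75 to -0.19 (limma, adjusted p = 0.221), and HFD minus chow was 0.45 ± 0.56 (adjusted p = 0.618).

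Of the 2 glucose transporters, 1 was called. Slc2a1 (GLUT1), the transporter of most non-hepatocyte cells, stood at 1.0, 0.91 and 0.96 on chow, 1.15, 1.35 and 1.25 on HFD, and 1.44, 1.84 and 2.01 on HFD+APS. The groups formed 3 steps without overlap, with HFD+APS the highest. HFD+APS exceeded chow by 0.81 ± 0.15, or 1.75-fold (limma, adjusted p = 0.0345), while the steps from chow to HFD (0.29 ± 0.15, adjusted p = 0.216) and from HFD to HFD+APS (0.51 ± 0.15, adjusted p = 0.137) did not pass. The call rested on few arrays: leaving out chow 1, chow 2, chow 3, HFD+APS 2, HFD+APS 3 or HFD 2 ended it, at up to 0.124. Leaving out HFD+APS 1 gave 0.67 for HFD+APS minus HFD, which then passed at 0.027. HFD+APS 1 itself, on the slide of the HFD arrays, was 0.19 above the HFD mean. The summed endothelial markers were also higher on every high-fat liver than on every chow liver. Those of Kupffer cells were higher on HFD than on chow and overlapped between chow and HFD+APS. By estimate, 8 of the 9 Kupffer cell markers were above chow in HFD (median 1.05) and in HFD+APS (median 1.02). The 1 below chow was Marco (-0.56 in HFD and -1.05 in HFD+APS). The part of these cells in the Slc2a1 result was not tested.

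Slc2a2 (GLUT2), the transporter of hepatocytes, read 4.73, 4.47 and 4.71 on chow, 5.34, 5.13 and 4.71 on HFD, and 4.32, 5.24 and 5.0 on HFD+APS. HFD 3 fell among the chow livers and HFD+APS 1 below them all. Its differences were 0.42 ± 0.25 for HFD minus chow (limma, adjusted p = 0.292) and -0.21 ± 0.25 for HFD+APS minus HFD (adjusted p = 0.708). Hk1, the hexokinase with high glucose affinity found in non-parenchymal cells, read -0.43, -0.65 and -0.60 on chow, -0.94, -0.46 and -0.19 on HFD, and -0.25, -0.72 and -0.42 on HFD+APS. These ranges overlapped throughout, with differences of 0.03 ± 0.20 and 0.07 ± 0.20. The 3 detected Hk1 probes disagreed, at 0.03, -0.86 and -0.58 for HFD minus chow, so the gene has no single direction.

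Of the other glycolytic genes none was called. Khk, the ketohexokinase that admits fructose, was 0.36 ± 0.23 above chow in HFD and -0.55 ± 0.23 from HFD in HFD+APS, with HFD+APS 1 the lowest of the 9 livers at 7.21. Gapdh was 0.43 ± 0.14 above chow in HFD with groups apart (adjusted p = 0.083 by limma), and its other probe gave 0.18. Eno1 (enolase) differed by 0.45 ± 0.20 and Pfkl, the liver phosphofructokinase, by 0.34 ± 0.14. Smaller estimates came from Gpi1 (0.20), Tpi1 (0.16), Pgk1 (0.10) and Ldha (0.01), which interconverts pyruvate and lactate. Other detected probes of Gpi1 (-1.44, well above background on 3 arrays) and Tpi1 (-0.06) were below 0 in the same comparison, so neither gene has a single direction. The Pgk1 probe maps to chromosome 3 in the files' mm9 annotation, away from the X-linked gene, and its value is uncertain for that reason. For pyruvate dehydrogenase, which commits pyruvate to acetyl-CoA, the subunits Pdha1 and Pdhb were 0.33 ± 0.17 and 0.10 ± 0.14 above chow in HFD and -0.23 ± 0.17 and -0.17 ± 0.14 from HFD in HFD+APS.

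**Figure D2:**
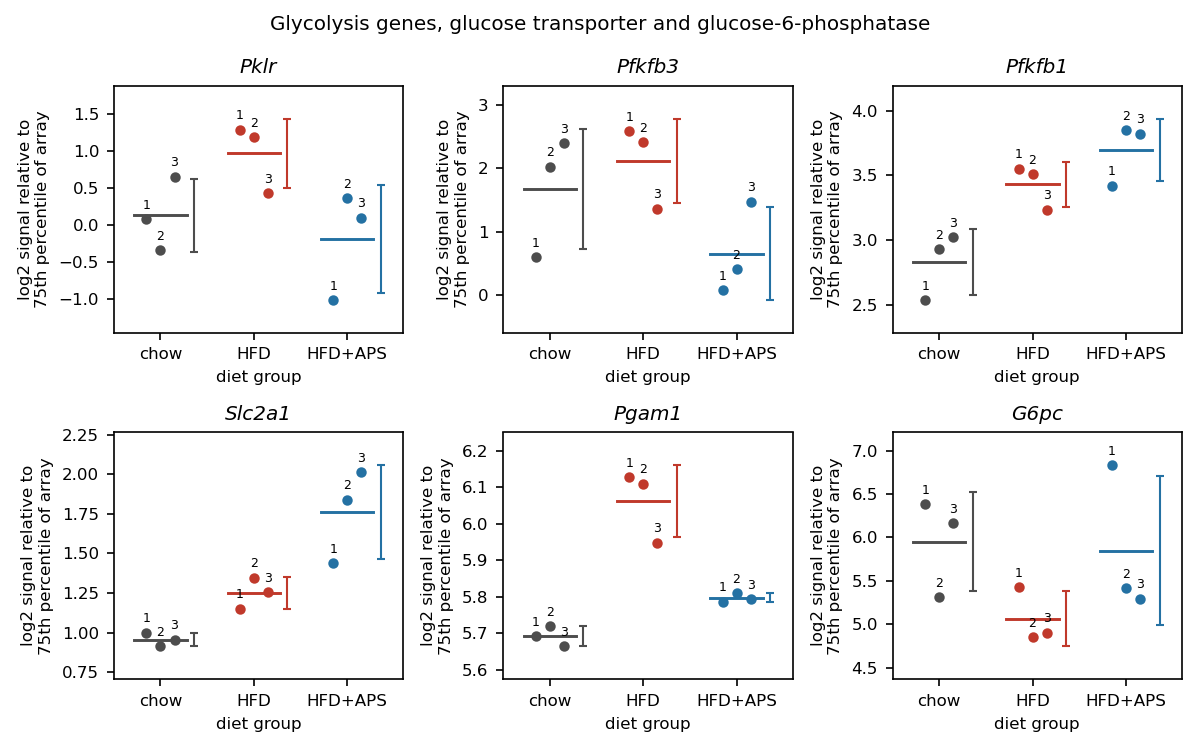
Log2 signal over the 75th percentile of its array for 6 genes by diet group. Points are single livers with their array number, the horizontal line is the mean and the bar its SD (n = 3). Pgam1 peaks in HFD with no overlap, Slc2a1 and Pfkfb1 are highest in HFD+APS, and HFD+APS 1 stands apart in Pklr (-1.01) and G6pc (6.83).

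Gluconeogenesis and glucose release showed no common direction in HFD: of 5 genes measured, 2 were above chow and 3 below by estimate. Among these 5, 1 was called, beside 10.9% of all features, 4.55% as higher, and nothing about the branch is read from that count. Pcx, the mitochondrial pyruvate carboxylase that makes oxaloacetate for gluconeogenesis and for lipogenic citrate, read 6.47, 6.66 and 6.43 on chow, 7.11, 7.09 and 6.88 on HFD, and 6.84, 6.88 and 6.82 on HFD+APS. HFD was highest, HFD+APS lay between, and no groups overlapped, though HFD 3 (6.881) and HFD+APS 2 (6.879) were nearly equal. HFD exceeded chow by 0.51 ± 0.11, or 1.42-fold (limma, adjusted p = 0.0279), and HFD+APS minus HFD was -0.18 ± 0.11 (adjusted p = 0.42). The call ended when a chow array was left out, whichever it was, and likewise without HFD+APS 3, HFD 2 or HFD 1, at up to 0.0841.

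G6pc, the catalytic subunit that frees glucose from glucose-6-phosphate, had an HFD estimate below 0. It read 6.38, 5.31 and 6.16 on chow, 5.43, 4.86 and 4.91 on HFD, and 6.83, 5.41 and 5.30 on HFD+APS. The HFD livers were low, chow 2 lay within their range, and HFD+APS 1 was the highest of the 9. HFD minus chow was -0.89 ± 0.44 (limma, adjusted p = 0.206) and HFD+APS minus HFD 0.78 ± 0.44 (adjusted p = 0.387), the latter being 1.77 for HFD+APS 1 and 0.29 for the other two livers.

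Fbp1, the fructose-1,6-bisphosphatase that opposes phosphofructokinase, read 9.29, 9.22 and 9.26 on chow, 9.28, 9.15 and 9.17 on HFD, and 9.28, 8.99 and 8.98 on HFD+APS. Its spread was small, and both intervals were narrow: -0.31 to 0.20 for HFD minus chow and -0.37 to 0.13 for HFD+APS minus HFD. Slc37a4, which carries glucose-6-phosphate to G6pc in the endoplasmic reticulum, differed by -0.08 ± 0.20 and -0.04 ± 0.20. Pck2, the mitochondrial phosphoenolpyruvate carboxykinase, was 0.40 ± 0.17 above chow in HFD (limma, adjusted p = 0.151) and -0.10 ± 0.17 from HFD in HFD+APS.

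**Figure D3:**
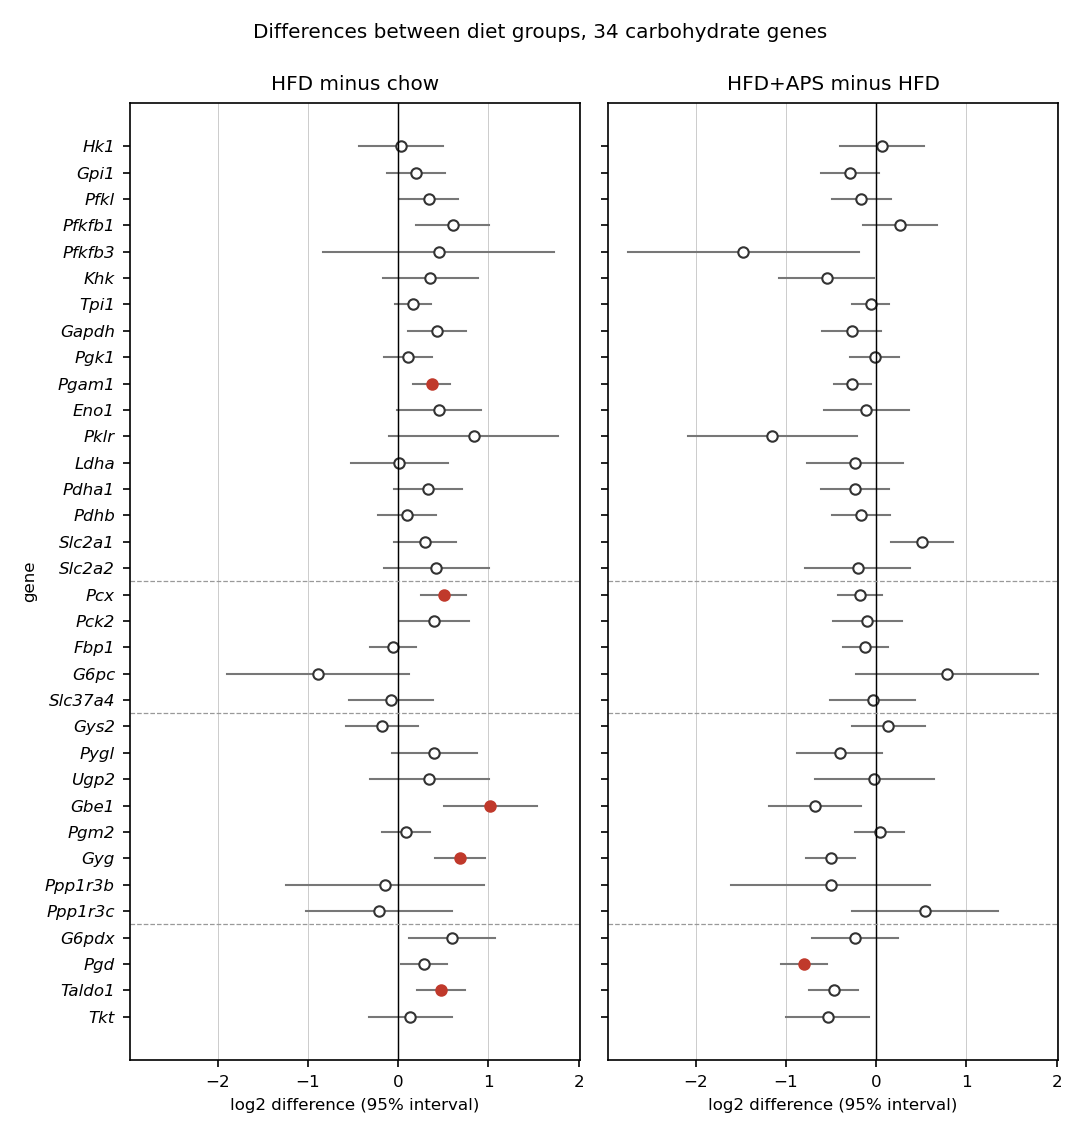
Log2 difference with its 95% interval (limma, n = 3 per group) for each of 34 genes, HFD minus chow on the left and HFD+APS minus HFD on the right. Dashed lines part the branches, and filled red points passed an adjusted p of 0.05: Pgam1, Pcx, Gbe1, Gyg and Taldo1 on the left, Pgd on the right.

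Among the glycogen genes, 2 of 8 rose in HFD and 0 fell, beside 4.55% of all features called higher and 6.38% lower, and nothing about the branch is read from that count. Both called genes encode proteins that build the particle: Gyg, the protein that primes a new glycogen chain, and Gbe1, which makes its branch points. The synthase and its targeting subunits were not called, and 3 of the 8 genes were below chow by estimate. For HFD+APS against HFD, 3 of 8 were above 0, the median was -0.21 and 0 were called.

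Gyg read 1.19, 0.93 and 1.02 on chow, 1.63, 1.65 and 1.91 on HFD, and 1.15, 1.27 and 1.26 on HFD+APS. The HFD livers lay above all 6 others, and HFD+APS 1 fell inside the chow range. HFD exceeded chow by 0.69 ± 0.12, or 1.61-fold (limma, adjusted p = 0.0159), and HFD+APS minus HFD was -0.50 ± 0.12 (adjusted p = 0.0807). The HFD call was lost without chow 2 or chow 3, at up to 0.0589.

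Gbe1 read 4.27, 4.33 and 4.56 on chow, 5.62, 5.60 and 5.0 on HFD, and 4.33, 4.96 and 4.89 on HFD+APS. HFD was highest, with HFD 3 close above HFD+APS 2, and HFD+APS 1 was within the chow range. The HFD difference from chow was 1.02 ± 0.22, or 2.03-fold (limma, adjusted p = 0.0297), and HFD+APS minus HFD was -0.68 ± 0.22 (adjusted p = 0.173). The HFD call held only when HFD 3 or an HFD+APS array was the one left out, and otherwise was lost at up to 0.0939.

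Gys2, the liver glycogen synthase, read 5.74, 5.99 and 5.80 on chow, 5.91, 5.77 and 5.32 on HFD, and 5.65, 5.75 and 6.00 on HFD+APS. The groups overlapped, with differences of -0.18 ± 0.17 and 0.14 ± 0.17 (limma, adjusted p = 0.519 and 0.722). Pygl, the liver phosphorylase that cuts glucose-1-phosphate off glycogen, read 6.30, 6.22 and 6.74 on chow, 6.91, 6.98 and 6.56 on HFD, and 6.06, 6.62 and 6.55 on HFD+APS. HFD 1 and HFD 2 were above every other liver, HFD 3 was not, and the differences were 0.40 ± 0.20 and -0.41 ± 0.20 (adjusted p = 0.221 and 0.34). A second Pygl probe gave -0.28 for HFD minus chow, so the direction depends on the probe.

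The targeting subunits bring protein phosphatase 1 to glycogen, where it activates the synthase and switches off phosphorylase. Ppp1r3b, the liver subunit, read 1.12, 1.45 and 2.44 on chow, 1.82, 1.57 and 1.18 on HFD, and 0.01, 1.72 and 1.33 on HFD+APS. The groups overlapped apart from the low HFD+APS 1, which was 1.52 under the HFD mean where the other two livers differed from it by 0.00. Ppp1r3c, found in liver and muscle, read 2.99, 2.26 and 3.05 on chow, 3.11, 1.85 and 2.69 on HFD, and 3.26, 3.33 and 2.68 on HFD+APS. These ranges also overlapped, with differences of -0.22 ± 0.35 and 0.54 ± 0.35 (limma, adjusted p = 0.712 and 0.453). Ugp2, which makes the UDP-glucose that the synthase uses, was 0.34 ± 0.29 above chow in HFD. The phosphoglucomutase that the array files name Pgm2, and RefSeq now names Pgm1, differed by 0.09 ± 0.12 and 0.04 ± 0.12.

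**Figure D4:**
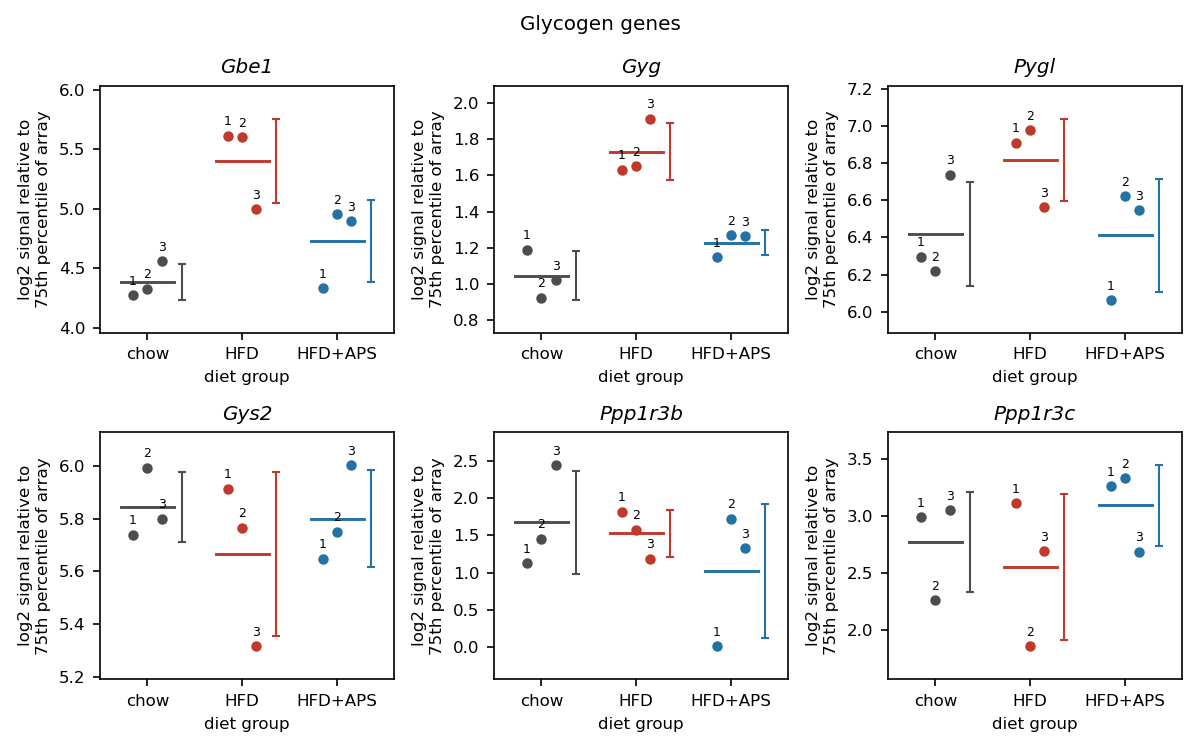
Log2 signal over the 75th percentile of its array for 6 glycogen genes by diet group, with single livers as numbered points, the mean as a line and the SD as a bar (n = 3). Gbe1 and Gyg are highest in HFD with no overlap, while Gys2, Pygl, Ppp1r3b and Ppp1r3c overlap between HFD and chow.

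In the pentose phosphate pathway the 4 genes were all above chow in HFD by estimate (median 0.38) and all below HFD in HFD+APS (median -0.50), except Tkt in HFD against chow by the mean of its detected probes (-0.26) or with HFD 2 left out, and G6pdx in HFD+APS against HFD with slide as a fixed block (0.13). One was called in each comparison, Taldo1 in the first (10.9% of all features were called there) and Pgd in the second (1.5%). The shared HFD arrays tie the signs of these 2 differences together; against chow, HFD+APS was above for 2 genes and below for 2, with a median of -0.20. For these 4 genes, the 250 bases upstream of their RefSeq start sites are printed here, 5′ to 3′ on the gene's strand. Whether the genes share a control was not tested. The bases are from RefSeq with GRCm38.p6 coordinates: G6pdx at chrX:74428881-74429130 (minus strand), Pgd at chr4:149166706-149166955 (minus strand, the first of its starts), Taldo1 at chr7:141391910-141392159 (plus strand) and Tkt at chr14:30548881-30549130 (plus strand). Capitals mark a match to 1 of 3 motifs searched on both strands: CACGTG (E-box), TGACNNNGC (core of the antioxidant response element) and TGACGTCA (cyclic AMP response element).
G6pdx: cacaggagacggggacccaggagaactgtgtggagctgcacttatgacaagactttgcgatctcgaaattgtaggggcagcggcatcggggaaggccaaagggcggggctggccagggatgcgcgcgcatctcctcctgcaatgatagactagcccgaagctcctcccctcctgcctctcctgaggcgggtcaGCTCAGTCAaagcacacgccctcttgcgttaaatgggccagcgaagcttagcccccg
Pgd: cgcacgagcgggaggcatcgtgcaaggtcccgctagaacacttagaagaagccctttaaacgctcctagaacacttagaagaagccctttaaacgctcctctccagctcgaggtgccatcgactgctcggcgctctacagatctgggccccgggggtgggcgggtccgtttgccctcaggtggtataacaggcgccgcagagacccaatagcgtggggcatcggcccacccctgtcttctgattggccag
Taldo1: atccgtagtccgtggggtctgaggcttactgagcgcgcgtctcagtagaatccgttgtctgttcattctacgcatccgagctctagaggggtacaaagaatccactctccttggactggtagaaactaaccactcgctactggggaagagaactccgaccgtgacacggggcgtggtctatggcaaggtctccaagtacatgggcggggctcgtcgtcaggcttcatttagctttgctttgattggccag
Tkt: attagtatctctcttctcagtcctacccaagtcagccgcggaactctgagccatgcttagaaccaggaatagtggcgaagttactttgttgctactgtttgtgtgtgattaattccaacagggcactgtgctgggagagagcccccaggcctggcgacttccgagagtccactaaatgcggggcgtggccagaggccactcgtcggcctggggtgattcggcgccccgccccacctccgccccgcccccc
G6pdx alone of the 4 held a match, to the antioxidant response element core, starting 57 bases before the start site. Over all 32851 RefSeq windows of that length, 10.2% held TGACNNNGC, 6.02% CACGTG and 1.55% TGACGTCA, and by gene (27025 genes, any of their windows) 11.5%, 6.86% and 1.77%. Of the 35 genes from the 4 branches, 33 had a window, with Pck1 included and Gys2 and Ppp1r3b without. Of these 33, 4 held TGACNNNGC (Hk1, Fbp1, G6pc and G6pdx) and 5 CACGTG (Pfkfb3, Khk, Ldha, Pcx and Ppp1r3c). TGACGTCA was held by 1 (Ldha), and each motif was in as many of their 47 windows as genes. A match describes letters only, and no match says only that these letters are not in the window.

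G6pdx, glucose-6-phosphate dehydrogenase, takes the first oxidative step and makes NADPH. It read -0.05, -0.25 and 0.16 on chow, 0.61, 0.25 and 0.81 on HFD, and 0.69, 0.08 and 0.20 on HFD+APS. HFD lay above chow with no overlap, and HFD+APS was spread across both ranges, HFD+APS 1 reading high. The differences were 0.60 ± 0.21 for HFD minus chow (limma, adjusted p = 0.0956) and -0.23 ± 0.21 for HFD+APS minus HFD (adjusted p = 0.592).

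Pgd, 6-phosphogluconate dehydrogenase, makes the second NADPH and ribulose-5-phosphate. It read 1.69, 1.93 and 1.84 on chow, 2.14, 2.01 and 2.16 on HFD, and 1.46, 1.24 and 1.22 on HFD+APS. The 3 groups did not overlap, and HFD+APS was the lowest, under chow as well as HFD. Pgd fell by 0.80 ± 0.11 on the log2 scale from HFD to HFD+APS, or 1.74-fold (limma, adjusted p = 0.0214), and HFD+APS was 0.51 ± 0.11 lower than chow, 1.43-fold (adjusted p = 0.0498), while HFD minus chow was 0.28 ± 0.11 (adjusted p = 0.13). HFD+APS 1, on the slide of the HFD arrays, was 0.65 under the HFD mean and the other two livers 0.87 under it. Leaving out HFD 1, HFD 3, HFD+APS 2 or HFD+APS 3 ended the call against HFD (up to 0.0853), leaving out any array but HFD+APS 1 ended the call against chow (up to 0.154), and a second Pgd probe gave -0.57 against HFD (adjusted p = 0.125) and -0.07 against chow.

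Taldo1 and Tkt run the reversible carbon exchanges that tie the pathway back to glycolysis. Taldo1, transaldolase, read 5.95, 6.12 and 6.15 on chow, 6.67, 6.51 and 6.46 on HFD, and 5.92, 6.21 and 6.11 on HFD+APS. HFD was above all 6 other livers, and the chow and HFD+APS ranges overlapped. HFD exceeded chow by 0.47 ± 0.12, or 1.39-fold (limma, adjusted p = 0.0406), a call lost without any 1 chow or HFD array or HFD+APS 3 (up to 0.0996), and HFD+APS minus HFD was -0.47 ± 0.12 (adjusted p = 0.0933). Tkt, transketolase, read 4.49, 4.90 and 4.71 on chow, 4.91, 5.12 and 4.48 on HFD, and 4.22, 4.11 and 4.57 on HFD+APS. HFD 3 lay below every chow liver and just under HFD+APS 3, and the differences were 0.13 ± 0.20 and -0.53 ± 0.20 (adjusted p = 0.686 and 0.218).

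**Figure D5:**
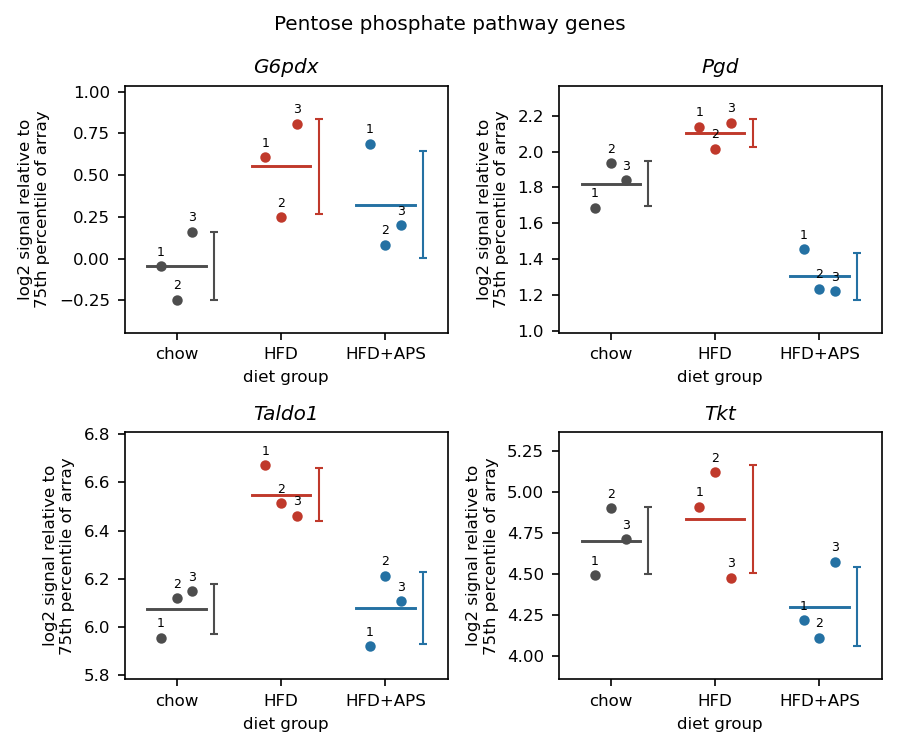
Log2 signal over the 75th percentile of its array for the 4 pentose phosphate genes by diet group, with single livers as numbered points, the mean as a line and the SD as a bar (n = 3). Pgd is lowest in HFD+APS (1.22 to 1.46) with no overlap with HFD (2.01 to 2.16), and Taldo1 is highest in HFD.

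Beside these genes, 110 other genes of the same pathways and their regulators were listed and 100 were tested. In HFD against chow 4 rose and 2 fell, in HFD+APS against HFD 1 fell and 0 rose, and 0 were called in HFD+APS against chow; as shares these were 6%, 1% and 0%, under the background of all features. The strongest call was another glycogen gene. Nhlrc1 (malin), the ubiquitin ligase whose loss gives the abnormal glycogen of Lafora disease, read -1.39, -0.85 and -0.93 on chow, 0.13, -0.11 and -0.06 on HFD, and -0.53, -0.39 and -0.54 on HFD+APS. The 3 groups did not overlap, HFD being highest. Its HFD difference was 1.04 ± 0.15, or 2.06-fold (limma, adjusted p = 0.0114), and that of HFD+APS from HFD was -0.48 ± 0.15 (adjusted p = 0.17). Gsk3a, a kinase that inactivates glycogen synthase, fell by 0.64 ± 0.12 on the log2 scale in HFD (adjusted p = 0.0191).

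Slc16a7, a transporter of pyruvate and lactate, rose by 0.82 ± 0.16 in HFD (limma, adjusted p = 0.0215). Hk2, the insulin-responsive hexokinase of muscle and fat, rose by 1.12 ± 0.29 (adjusted p = 0.0452), from -3.76 to -2.83 on chow to -2.71 to -1.84 on HFD. Txnip, which restrains glucose uptake, fell by 0.84 ± 0.21 (adjusted p = 0.0417). Pfkp, the platelet-type phosphofructokinase, was the gene that fell in HFD+APS against HFD, by 0.81 ± 0.16 (adjusted p = 0.0499). Each of these 6 calls except that of Nhlrc1 was lost in some of the fits that left out 1 array, at an adjusted p of up to 0.0665 for Gsk3a, 0.064 for Slc16a7, 0.132 for Hk2 and 0.107 for Txnip. With normexp and quantile normalization the Hk2 difference was 0.43 and that of Gsk3a -0.37, both still called, and Hk2 lost its call without a filter on dim probes, in the 2-group fit, with slide as a random block and with array weights (up to 0.0952). By the mean of its detected probes Slc16a7 was at 0.44 (adjusted p = 0.0865). Txnip lost its call without the filter, in the 2-group fit and with slide as a random block (up to 0.0831). The call of Pfkp was lost in 8 of those 9 fits and by the mean of its detected probes, and with normexp and quantile normalization its difference was -0.02.

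Pdk4, the kinase that shuts pyruvate dehydrogenase in fasting, read 2.37, 2.80 and 2.42 on chow, 0.58, 1.0 and 2.17 on HFD, and 2.31, 0.23 and 0.71 on HFD+APS. HFD 3 and HFD+APS 1 were the high livers of their groups, near chow, and HFD minus chow was -1.28 ± 0.56 (limma, adjusted p = 0.163). For Mlxipl, the factor that senses carbohydrate, the differences were 0.05 ± 0.25 and -0.10 ± 0.25, and for Ppargc1a, a coactivator of gluconeogenic genes, -0.42 ± 0.15 (adjusted p = 0.109) and 0.15 ± 0.15. Gckr, a regulatory protein of glucose phosphorylation in the liver, differed by 0.27 ± 0.19 and -0.16 ± 0.19, and Pkm, the pyruvate kinase of most other tissues, by 0.14 ± 0.26 and -0.54 ± 0.26, with neither called.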

How the data were processed

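Total RNA of 9 livers, 3 per diet group, was read on 9 Agilent 1-colour (Cy3) mouse arrays. Per the file headers, the authors scanned them with Feature Extraction 10.7.1.1 (10.7 in the submitters' processing notes), and their processed signal is the intensity of each spot after background subtraction within its array, with no scaling across arrays. A value table deposited by the authors holds log2 values, which correlated at 0.9969 to 0.9999 with the log2 processed signal; its columns had medians of 4.98 to 4.99, genes were not centred, and the normalization step is not given in the sources used here. Here R 4.3.3 and limma 3.58.1 were used. Flagged spots were left out, spots of a probe averaged on the log2 scale and each array's 75th percentile subtracted. That percentile corresponded to a signal of 209.7 to 264.7 units. Probes well above background on at least 3 of 9 arrays were kept (26478 of 41174), each gene was read by its brightest probe, and 17636 features entered 1 fit (lmFit and eBayes, 6 residual and 2.2 prior degrees of freedom, 2-sided, Benjamini-Hochberg). Genes of the branches had 56 probes, and probe positions follow the mm9 annotation in the files. Probes were named through RefSeq (GRCm38.p6), 27668 by accession.

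The genes, the lists of other pathway and marker genes and the rule for naming them were chosen with earlier results of these data known. Every array's value is given for all called genes of the 4 branches and 13 set by name (Pck1 had none). Of the other pathway genes, those named are 8 set by name and up to 6 with the smallest p per comparison among those called; some of these other genes are not reported here. The fit was checked on simulated data. The alternatives in the closing section were normexp with quantile normalization, another percentile base, the deposited table, 2 other probe filters, the mean over probes, 2-group fits, replicate and slide blocks, array weights and leaving out each array.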

Additional observations from a re-analysis of the deposited data

How the results depend on the processing

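Of the 34 genes, 5 were called for HFD against chow (all higher) and 1 for HFD+APS against HFD (lower). For HFD+APS against chow 3 were called (2 higher and 1 lower). In that order, no filter on dim probes (27342 features tested) gave 1, 0 and 0 (2.92%, 0.289% and 0.819% of all features called, against 10.9%, 1.5% and 3.47%), fits of only the 2 groups compared gave 2, 0 and 0 (9.91%, 0.142% and 1.97%), slide as a random block gave 1 (Gyg), 1 (Pgd) and 0 (3.88%, 0.93% and 0.936%), and the replicate number as a block (replicate block) gave 2, 0 and 0 (7.51%, 0.465% and 1.68%). With normexp and quantile normalization 2 were called in HFD+APS against HFD (1.56% of all features), with array weights 4 (7.2%), and with slide as a fixed block, the difference within 1 slide, 0 (0.0851%; Pgd -0.65, adjusted p = 0.166). With 1 array left out, the counts ran from 0 to 6, from 0 to 2 and from 0 to 3. In the same fits, the shares of all features called ran from 2.07 to 15.4%, from 0.289 to 3.28% and from 0.119 to 9.11%. The alternatives not named here kept the counts within 1.5 times. Same-numbered arrays deviated from their group means with correlations of -0.175 to 0.164, so the numbers do not pair the samples. No named gene's called difference changed sign under these alternatives. Where an alternative ended a call, the cause was not tested. More features were tested without a filter, and fewer arrays entered the 2-group and left-out fits. All 34 genes were well above background on every array, and each group held 3 livers.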
